A study of Mus musculus with 7 samples.

Results

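The 10 genes described here encode the nuclear end of WNT signalling and were given by name. The rule holds no measured value, but the genes were chosen with earlier results of these data known. They are the 4 TCF/LEF factors Tcf7, Lef1, Tcf7l1 and Tcf7l2, beta-catenin (Ctnnb1), the 2 BCL9 adaptors Bcl9 and Bcl9l, the 2 Pygopus genes Pygo1 and Pygo2, and the Groucho-type corepressor Tle1, out of 34592 genes counted. RNA was sequenced from 7 mouse Group 3 medulloblastomas (G3 MBs), 4 with enforced expression of WDR11 (WDR11OE) and 3 controls. All 7 grew from one tumorsphere line, # 19568. This line had been made by transducing cerebellar granule neuron progenitors lacking Trp53 and Cdkn2c with a retrovirus carrying Myc. The methods of the study give the retrovirus as Myc-IRES-GFP, whereas a figure legend gives myc-IRES-RFP for the line. The tumorspheres were infected with the lentivirus pCDH-EF1-WDR11-T2A-copGFP, in which the EF1 promoter drives a human WDR11 cDNA, or with the empty vector pCDH-EF1-MCS-T2A-copGFP, placed in the cortices of CD1-nu/nu mice without sorting, and left until the mice were moribund. The sample labels list the controls as untreated, whereas the protocol and the methods of the study describe the empty vector. According to the study, infection reached only a part of the cells, and mice with WDR11-expressing tumors survived longer. Time to harvest may therefore also differ between the groups. CD1-nu/nu mice lack a thymus but keep other immune cells. Each library was taken as the RNA of a tumor piece. The methods of the study describe tumor samples for sequencing, whereas its abstract speaks of tumorspheres. In the RNA of a tumor piece, fewer cells of a type and less RNA per cell cannot be told apart.

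In the canonical WNT pathway, beta-catenin that escapes degradation enters the nucleus and binds TCF/LEF proteins, which sit on DNA at WNT target genes. Without beta-catenin, TCF proteins recruit corepressors of the Groucho/TLE family. With it, BCL9 proteins bind beta-catenin and Pygopus proteins bind BCL9, and this chain helps to turn the targets on. Beta-catenin also has a separate role at the cell membrane, where it ties cadherins to alpha-catenin.

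Total counts per tumor ranged from 32116095 to 87141305. The libraries of the 2 conditions carry names from separate series, so series and condition cannot be told apart. Wdr11 was counted at 58.4 to 59.3 CPM (counts scaled to the library size with TMM factors) in the controls and 61.0 to 68.9 CPM in the WDR11OE tumors (log2 fold change 0.16, SE 0.06, adjusted p = 0.0910 in edgeR's quasi-likelihood test), and the counts did not separate reads of the human cDNA. Of 8 markers of the granule lineage and medulloblastoma, Atoh1 was at 0 in all 7 tumors and Barhl1 and Otx2 were too low to be tested. Of the 5 tested, 0 passed the test described below, which called 15.8% of all genes lower and 18.1% higher. The sums were 46.3 to 53.8 CPM in the controls, 42.7 to 53.8 CPM in WDR11OE 1 to 3 and 94.6 CPM in WDR11OE 4. All 6 skeletal muscle markers were higher in WDR11OE, and their sum was 1.38 to 1.97 CPM in the controls and 34.4 to 106 CPM in the WDR11OE tumors, highest in WDR11OE 3. Neuron markers summed to 65.6 to 429 CPM and 11.5 to 668 CPM in the 2 groups, with 0 of 8 passing. Endothelial markers summed to 112 to 142 CPM and 86.4 to 95.8 CPM, with 2 of 6 lower. Of the remaining lists, 1 of 6 astrocyte markers passed (S100b, higher), as did 0 of 6 oligodendrocyte, 0 of 6 microglia and macrophage and 0 of 3 red blood cell markers, with summed levels that overlapped between the groups. Of 6 T cell markers, only Thy1 was high enough to be tested, and it did not pass. The T cell sums were 5.222 to 20.98 CPM in the controls and 2.416 to 14.95 CPM in the WDR11OE tumors. Most of each sum was Thy1, at 20.93 CPM in control 1 and 14.58 CPM in WDR11OE 4. Those tumors also had the highest neuron marker sums of their groups. The summed counts of Cd3e, Cd3d and Cd3g were at most 5 in a tumor. The part of any of these cells in the results below was not tested.

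Levels of 6 of the 10 genes fell in the WDR11OE tumors, 0 rose and 4 did not pass the test. The test was edgeR's quasi-likelihood test over 17389 genes with an adjusted p under 0.05, which called 15.8% of all genes lower and 18.1% higher. A 2-fold call, for which the log2 fold change must also reach 1 in either direction and the average log2 CPM must exceed 0, was reached by Tcf7l1, Tcf7l2, Bcl9 and Bcl9l, all lower, against 3.45% of all genes called lower and 2.36% called higher by this rule. In 7 of the 10 genes every WDR11OE tumor lay below every control, against 19.1% of all genes, and in 0 did every WDR11OE tumor lie above, against 23.5%. The median log2 fold change was -0.63 over the 10 genes and 0.08 over all genes tested. The members were chosen with earlier results known, and the abstract of the study names Tcf7l1 as down-regulated. Setting the list beside the shares of all genes therefore describes it and does not test it. The libraries of the 2 groups also differed by the GC content of the exons, and once that trend was removed 7 of the 10 genes were lower and 0 higher, against 14.4% and 11.2% of all genes, with medians of -0.61 and 0.05.

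**Figure D1:**
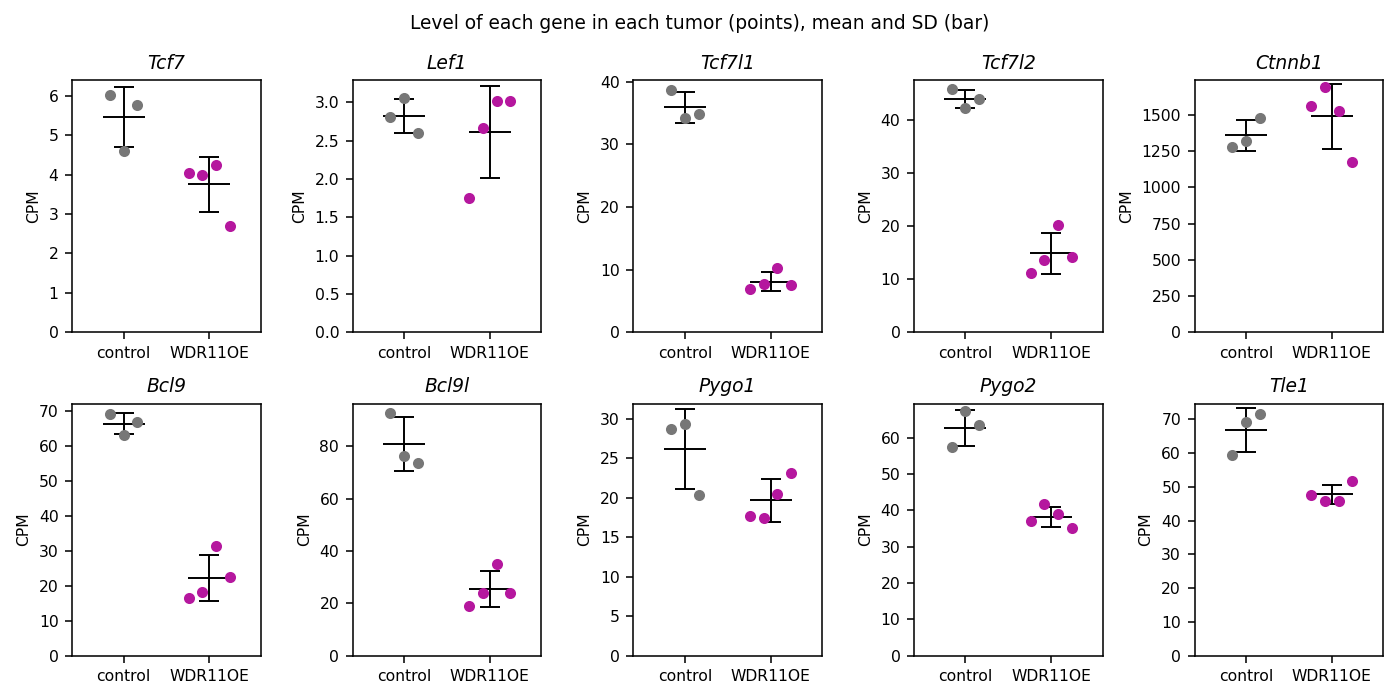
CPM of each of the 10 genes (vertical axis, from 0, with a scale of its own in each panel) in the 3 control tumors (grey) and the 4 WDR11OE tumors (magenta), with the mean and SD in black. The groups are far apart for Tcf7l1, Tcf7l2, Bcl9 and Bcl9l and overlap for Lef1, Ctnnb1 and Pygo1.

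Tcf7l1 and Tcf7l2, the TCF/LEF genes with the most transcript, were the ones that fell, while Tcf7 and Lef1 were low in both groups and did not pass the test. To place the letters that TCF/LEF proteins are known to prefer beside these changes, the 250 bases before the GENCODE starts of Tcf7l1 and Tcf7l2 are shown, followed by the 3 windows of the TCF/LEF genes that were picked because they hold such letters. All are on the NCBIM37 mouse genome, the build of the counts, and run 5′ to 3′ along the strand of the gene. Capitals mark CTTTGAA or CTTTGAT or CTTTGTA or CTTTGTT on either strand and the E-box CACGTG, a site of MYC and other basic helix-loop-helix proteins, which reads the same on both strands and does not overlap the TCF/LEF letters. The first 3 windows end at the GENCODE gene start, Tcf7l1 at chr6:72739249-72739498 (minus strand), Tcf7l2 at chr19:55816050-55816299 (plus strand) and Tcf7 at chr11:52096682-52096931 (minus strand). The last 2 end at internal RefSeq starts, taken from sequences on GRCm38.p6 and placed on NCBIM37 by an exact match, Tcf7l2 at chr19:55969561-55969810 (plus strand) and Lef1 at chr3:130858962-130859211 (plus strand).
Tcf7l1 start: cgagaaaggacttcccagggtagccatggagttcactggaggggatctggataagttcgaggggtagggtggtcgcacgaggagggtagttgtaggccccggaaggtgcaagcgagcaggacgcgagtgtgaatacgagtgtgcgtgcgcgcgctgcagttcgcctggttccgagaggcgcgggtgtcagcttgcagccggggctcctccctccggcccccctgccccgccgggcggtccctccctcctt
Tcf7l2 start: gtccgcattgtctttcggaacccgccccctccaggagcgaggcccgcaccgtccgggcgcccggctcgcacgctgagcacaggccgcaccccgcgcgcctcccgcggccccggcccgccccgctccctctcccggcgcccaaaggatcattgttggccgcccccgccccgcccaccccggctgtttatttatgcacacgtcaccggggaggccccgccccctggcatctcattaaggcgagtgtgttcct
Tcf7 start: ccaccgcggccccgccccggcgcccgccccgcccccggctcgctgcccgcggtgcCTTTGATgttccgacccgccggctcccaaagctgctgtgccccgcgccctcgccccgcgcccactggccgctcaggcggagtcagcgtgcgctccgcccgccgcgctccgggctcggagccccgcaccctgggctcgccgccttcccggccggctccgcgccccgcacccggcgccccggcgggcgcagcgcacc
Tcf7l2 internal start: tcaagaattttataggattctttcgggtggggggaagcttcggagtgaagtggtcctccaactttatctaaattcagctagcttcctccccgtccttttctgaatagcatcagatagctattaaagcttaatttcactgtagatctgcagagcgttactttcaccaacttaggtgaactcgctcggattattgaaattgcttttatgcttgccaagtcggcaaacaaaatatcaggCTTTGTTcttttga
Lef1 internal start: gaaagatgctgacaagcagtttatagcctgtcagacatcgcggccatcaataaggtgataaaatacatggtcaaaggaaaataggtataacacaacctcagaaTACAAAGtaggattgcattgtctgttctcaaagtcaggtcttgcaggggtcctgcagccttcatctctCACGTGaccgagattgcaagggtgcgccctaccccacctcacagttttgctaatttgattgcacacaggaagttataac

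The windows before the GENCODE starts of Tcf7l1, Tcf7l2 and Lef1 held none of these letters, and neither did the other RefSeq windows of the 4 TCF/LEF genes. The TCF/LEF letters stood at -195 from the Tcf7 start, at -14 from the internal Tcf7l2 start and at -147 from the internal Lef1 start, and the Lef1 window also held an E-box at -79. Over all members, the TCF/LEF letters were in 1 of 10 GENCODE windows, against 13.9% of 22380 windows of protein-coding genes, and in 2 of 17 RefSeq windows of the 9 members matched, against 14.8% of 32851. The E-box was in 0 of 10 and 1 of 17 member windows, against 6.51% and 6.02% of all. The counts are per gene and do not tell which start a transcript came from.

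Tcf7l1 (ENSMUSG00000055799, chr6:72576372-72739248) encodes TCF3, a TCF protein known mainly as a repressor of WNT targets in stem and progenitor cells. Its level was 38.6, 34.2 and 34.9 CPM in controls 1 to 3 and 6.84, 7.74, 10.2 and 7.55 CPM in WDR11OE 1 to 4. All 4 WDR11OE tumors lay far below the controls, and even the one with the most Tcf7l1 did not come near the lowest control. The log2 fold change was -2.15 (SE 0.15, edgeR adjusted p = 0.000858), a 4.44-fold lower level, and stood at place 75 from the lowest of the 17389 genes. A stretch of 179 exonic bases overlaps Gm15401 on the opposite strand, a gene at 0.00926 CPM in the controls and 0.0295 CPM in WDR11OE.

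Tcf7l2 (ENSMUSG00000024985, chr19:55816300-56008144) encodes TCF4, which activates or represses targets depending on its partners and is the main TCF of the intestinal stem cell. Its level was 45.8, 42.4 and 44.0 CPM in the controls and 11.3, 13.7, 20.3 and 14.2 CPM in the WDR11OE tumors. The controls lay close together and the WDR11OE tumors were spread more widely below them, with WDR11OE 3 the highest of its group. The log2 fold change was -1.57 (SE 0.19, edgeR adjusted p = 0.00138), a 2.97-fold lower level.

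Tcf7 (ENSMUSG00000000782, chr11:52065873-52096681) encodes TCF1, and Lef1 (ENSMUSG00000027985, chr3:130813389-130927274) encodes the lymphoid enhancer factor, both best known from T cell development and both WNT targets in some tissues. Tcf7 was at 6.03, 4.60 and 5.76 CPM in the controls and 4.05, 4.01, 4.25 and 2.71 CPM in the WDR11OE tumors. The groups did not overlap, but the gap between them was narrow and the difference did not pass the test (log2 fold change -0.54, SE 0.21, edgeR adjusted p = 0.0904). Lef1 was at 2.81, 3.05 and 2.61 CPM in the controls and 1.75, 2.67, 3.02 and 3.02 CPM in the WDR11OE tumors. The groups overlapped, with WDR11OE 1 below every control and the other 3 WDR11OE tumors within the range of the controls, and the log2 fold change was -0.11 with a 95% interval of -0.67 to 0.45 (edgeR adjusted p = 0.766). Between 74 and 276 reads a tumor fell on Lef1, the fewest or close to the fewest of the 10 genes, so counting error weighs most on its values.

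Per kilobase of exon (RPKM), the sum of the 4 TCF/LEF genes was 19.4, 17.1 and 17.9 in the controls and 5.00, 5.64, 7.27 and 5.22 in the WDR11OE tumors. The make-up of that sum also differed between the groups. Tcf7l1 made up 60.1%, 60.0% and 58.7% of it in the controls and 41.2%, 41.3%, 42.3% and 43.5% in the WDR11OE tumors. The mean share of Tcf7l1 went from 59.6% ± 0.799 (SD, n = 3) to 42.1% ± 1.09 (SD, n = 4), with a two-sided exact permutation p = 0.0286 (the smallest that the 35 ways of choosing the tumors can give) and an adjusted p of 0.0381 over the 4 shares. The share of Tcf7 was 10.8% ± 1.01 in the controls and 23.5% ± 4.65 in WDR11OE, and that of Lef1 was 1.81% ± 0.220 and 5.25% ± 1.12, each higher in 4 of 4 WDR11OE tumors and with the same exact permutation p and adjusted p. Tcf7l2 held 27.8% ± 0.662 and 29.2% ± 2.90, a difference smaller than the spread in WDR11OE (exact permutation p = 0.429, adjusted p = 0.429). Shares of one sum are not independent of each other, and a higher share of Tcf7 or Lef1 stood beside levels of these genes that were not higher.

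**Figure D2:**
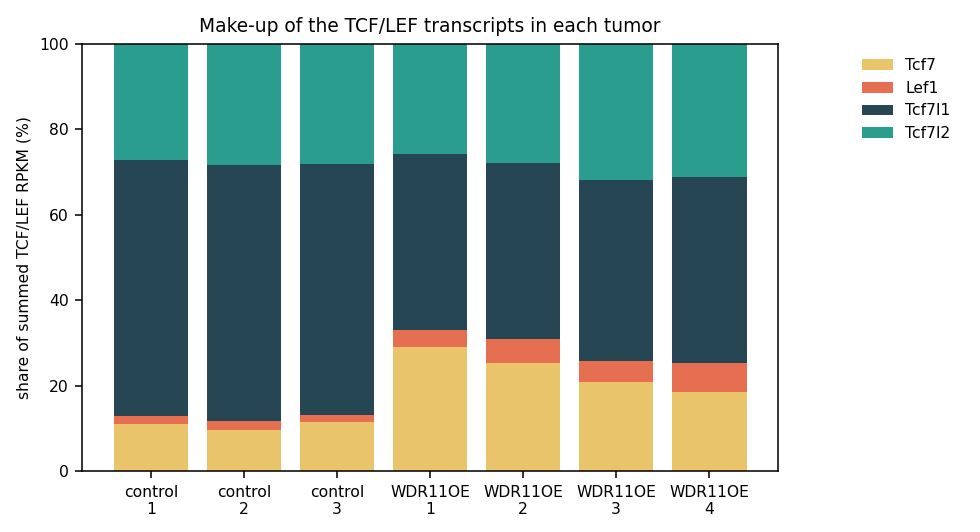
Share of Tcf7, Lef1, Tcf7l1 and Tcf7l2 in their summed RPKM (vertical axis, percent) in each of the 7 tumors (horizontal axis). Tcf7l1 takes 58.7% to 60.1% in the controls and 41.2% to 43.5% in the WDR11OE tumors, and Tcf7 takes 9.63% to 11.5% and 18.6% to 29.0%.

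Within each tumor, the log2 ratio of Tcf7l1 to Tcf7l2 counts, which does not depend on how libraries are scaled, was -0.25, -0.31 and -0.33 in the controls and -0.72, -0.82, -0.99 and -0.91 in the WDR11OE tumors. Every WDR11OE tumor had less Tcf7l1 for its Tcf7l2 than every control. The means were -0.30 ± 0.05 (SD) and -0.86 ± 0.12 (SD), a difference of -0.56, with a two-sided exact permutation p = 0.0286 and an adjusted p of 0.0571 over the 4 ratios compared, which does not pass 0.05. The profile of Tcf7l2 over the 7 tumors was most like those of Bcl9, Ston1 and Sox9, with root mean square differences of 0.0736, 0.0823 and 0.0849 between gene-centred log2 CPM among 14806 genes. Tcf7l1 was most like Mospd3, Loxl1 and Sp2 (0.114, 0.120 and 0.170), Tcf7 most like Anxa11, 9030425E11Rik and Foxred2 (0.0688, 0.0726 and 0.0784), and Lef1 most like Def6, 6230400D17Rik and Uimc1 (0.122, 0.127 and 0.134).

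Ctnnb1 (ENSMUSG00000006932, chr9:120838334-120869625), the beta-catenin gene itself, was by far the most abundant of the 10. Its level was 1278, 1319 and 1479 CPM in the controls and 1561, 1696, 1529 and 1173 CPM in the WDR11OE tumors. The WDR11OE tumors lay on both sides of the controls, with WDR11OE 4 the lowest of all 7. The log2 fold change was 0.13 with a 95% interval of -0.22 to 0.48 (edgeR adjusted p = 0.541), which does not hold a halving or a doubling. With the TCF/LEF sum lower and Ctnnb1 not, the log2 ratio of Ctnnb1 to the TCF/LEF sum in RPKM was 3.70, 3.92 and 4.02 in the controls and 5.94, 5.88, 5.37 and 5.46 in the WDR11OE tumors. These are transcript levels, and the protein, whose stability is what WNT controls, was not measured. Exons of Ulk4 overlap 240 bases of Ctnnb1 on the opposite strand, and Ulk4, at 18.8 and 9.33 CPM, was far below Ctnnb1.

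Both BCL9 adaptors, which bridge beta-catenin to Pygopus, fell about as much as Tcf7l2. Bcl9 (ENSMUSG00000038256, chr3:97007585-97032769) was at 69.1, 63.1 and 67.0 CPM in the controls and 16.6, 18.3, 31.3 and 22.6 CPM in the WDR11OE tumors. Bcl9l (ENSMUSG00000063382, chr9:44307219-44318471), its paralog, was at 92.7, 76.4 and 73.8 CPM in the controls and 18.9, 23.9, 35.2 and 24.0 CPM in the WDR11OE tumors. For both genes the highest WDR11OE tumor was again WDR11OE 3, which also had the highest Tcf7l1 and Tcf7l2 of its group and the highest sum of muscle markers, and it still lay well below every control. The log2 fold changes were -1.58 (SE 0.21, edgeR adjusted p = 0.00184) for Bcl9 and -1.67 (SE 0.20, edgeR adjusted p = 0.00146) for Bcl9l. The log2 ratio of Bcl9 to Bcl9l counts was -0.28 ± 0.14 (SD) in the controls and -0.21 ± 0.13 (SD) in WDR11OE, a difference of 0.07 that was smaller than either spread (exact permutation p = 0.486).

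Of the Pygopus genes, whose PHD fingers read methylated histone H3 tails, Pygo2 fell and Pygo1 did not pass the test. Pygo2 (ENSMUSG00000047824, chr3:89234136-89239050) was at 57.6, 67.4 and 63.6 CPM in the controls and 37.1, 41.7, 39.2 and 35.2 CPM in the WDR11OE tumors. The tumors of each group lay close together, and the log2 fold change was -0.71 (SE 0.09, edgeR adjusted p = 0.00140). Pygo1 (ENSMUSG00000034910, chr9:72773452-72799988) was at 28.7, 29.4 and 20.4 CPM in the controls and 17.6, 17.4, 20.5 and 23.1 CPM in the WDR11OE tumors. Control 3 lay among the WDR11OE tumors, and the difference in Pygo1 did not pass the test (log2 fold change -0.41, SE 0.16, edgeR adjusted p = 0.0936). Without control 3 it was -0.57 (edgeR adjusted p = 0.0298), without WDR11OE 4 it was -0.50 (0.0489), and with the GC trend removed it was -0.64 (0.0210), and over the 16 alternative fits the adjusted p of Pygo1 ran from 0.0210 to 0.263. The log2 ratio of Pygo1 to Pygo2 counts was -1.28 ± 0.33 (SD) in the controls and -0.97 ± 0.28 (SD) in WDR11OE (exact permutation p = 0.257, adjusted p = 0.343).

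Tle1 (ENSMUSG00000008305, chr4:71778176-71861953) encodes a full-length Groucho corepressor that TCF proteins recruit. It was at 59.4, 69.1 and 71.7 CPM in the controls and 47.6, 45.9, 45.7 and 51.8 CPM in the WDR11OE tumors. The groups did not overlap, and the log2 fold change of -0.48 (SE 0.09, edgeR adjusted p = 0.00536) was the smallest of the 6 that passed. With the trend over exon length removed it was -0.35 (edgeR adjusted p = 0.0572), the highest adjusted p of the 16 alternative fits, which began at 8.3e-07. The log2 ratios of Tle1 to Tcf7l1 counts, which follow from the values above, were 0.62, 1.02 and 1.04 in the controls and 2.80, 2.57, 2.16 and 2.78 in the WDR11OE tumors. Exons of Gm11250 overlap 247 bases of Tle1 on the opposite strand, and Gm11250 was at 0.0172 CPM in the controls and 0.00586 CPM in WDR11OE.

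**Figure D3:**
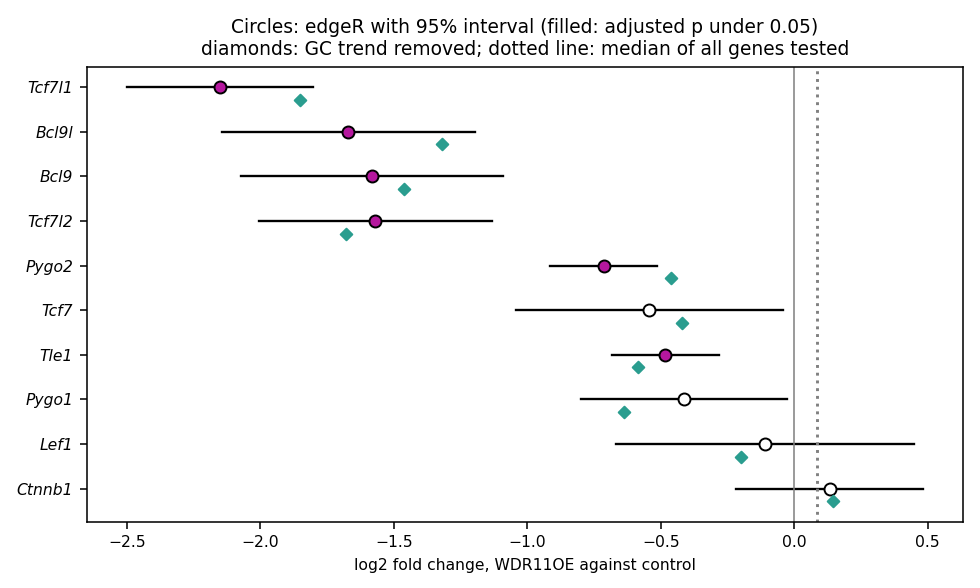
Log2 fold change of WDR11OE against control for the 10 genes, with circles for edgeR (filled where the adjusted p was under 0.05), black lines for the 95% interval and green diamonds for the fit with the GC trend removed. The solid line is 0 and the dotted line the median of all genes tested, 0.08. The 4 lowest lie between -2.15 and -1.57, and the other 6 between -0.71 and 0.13.

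By level per kilobase in the controls, Ctnnb1 was first with 266 ± 20.8 RPKM (SD, n = 3), followed by Pygo2 with 17.3 ± 1.36, Bcl9l with 15.3 ± 1.93, Tcf7l1 with 10.8 ± 0.724, Bcl9 with 8.01 ± 0.367, Tle1 with 7.66 ± 0.743, Tcf7l2 with 5.04 ± 0.196, Pygo1 with 3.31 ± 0.634, Tcf7 with 1.96 ± 0.272 and Lef1 with 0.326 ± 0.0259 RPKM. Only Pygo2 and Bcl9l, and Bcl9 and Tle1, overlapped as neighbours in this order. In the WDR11OE tumors the order was Ctnnb1 with 292 ± 43.7 RPKM (SD, n = 4), Pygo2 with 10.6 ± 0.767, Tle1 with 5.48 ± 0.328, Bcl9l with 4.80 ± 1.30, Bcl9 with 2.68 ± 0.796, Pygo1 with 2.48 ± 0.339, Tcf7l1 with 2.43 ± 0.445, Tcf7l2 with 1.70 ± 0.439, Tcf7 with 1.35 ± 0.253 and Lef1 with 0.302 ± 0.0692 RPKM. Here each gene from Tle1 down to Tcf7l2 overlapped the next, so that Tcf7l1, which stood clear of its neighbours in the controls, overlapped both Pygo1 and Tcf7l2.

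Genes with GC-rich exons tended to be lower in WDR11OE, so each member was set beside the tested protein-coding genes within 1 percentage point of its own GC content. The numbers of neighbours and the percentages as low include the member itself. The 834 neighbours of Tcf7l1, at 58.9% GC, had a median log2 fold change of -0.22 with quartiles of -0.59 and 0.17, and 0.719% of them were as low as Tcf7l1 or lower. For Tcf7l2, at 46.9% GC, the median of 1556 neighbours was 0.15 and 0.514% were as low. For Bcl9 (54.0% GC) and Bcl9l (62.0% GC) the medians were -0.10 and -0.28, and 1.26% and 3.29% were as low. Pygo2, at 57.7% GC, lay nearer to its neighbours, whose median was -0.22 with quartiles of -0.61 and 0.17, and 19.3% were as low. Tle1, at 47.2% GC, was also nearer, with a median of 0.14 over 1551 neighbours and 13.35% as low. With the GC trend removed the log2 fold changes were -1.85 for Tcf7l1, -1.68 for Tcf7l2, -1.46 for Bcl9, -1.32 for Bcl9l, -0.46 for Pygo2 and -0.58 for Tle1, and the largest edgeR adjusted p among these 6 was 0.00747.

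**Figure D4:**
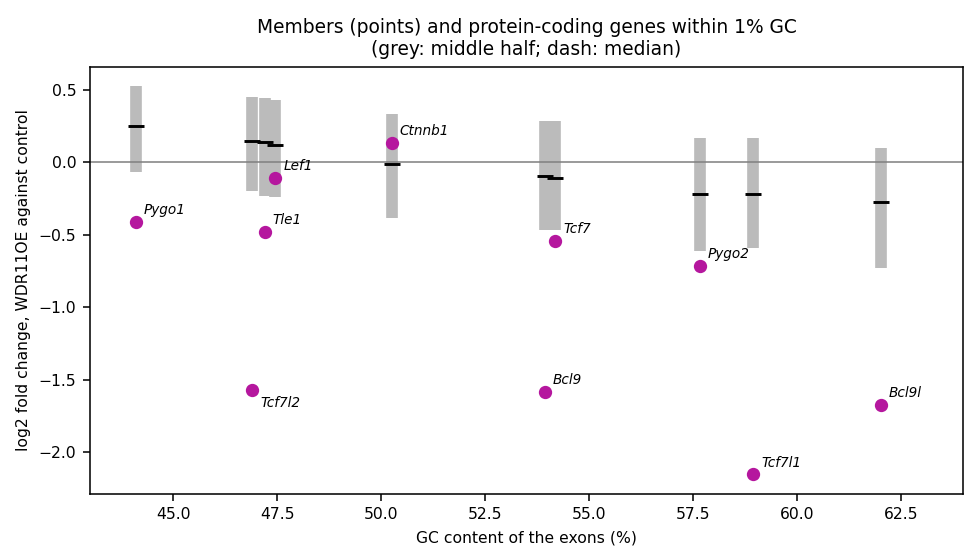
Log2 fold change of WDR11OE against control (vertical axis) against the GC content of the exons in percent (horizontal axis) for the 10 genes (magenta points). Grey bars span the quartiles and black dashes the medians of tested protein-coding genes within 1 percentage point of each member's GC content. Ctnnb1 and Lef1 lie within the grey bars and the other 8 genes below them, with Tcf7l1, Tcf7l2, Bcl9 and Bcl9l the farthest below.

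The other genes of this machinery were taken as lists. Of the 5 other Groucho/TLE genes, 3 fell, 1 rose and 1 did not pass, where 15.8% of all genes were called lower and 18.1% higher. Their median log2 fold change was -0.46, against 0.08 for all genes. Tle3, a full-length corepressor, had -0.94 (edgeR adjusted p = 0.00120), Tle4, another, -0.46 (0.00756) and Aes, a short family member that lacks the WD40 repeats, -0.55 (0.00676). With the GC trend removed Aes was at -0.21 (edgeR adjusted p = 0.189). Tle6 rose by 0.79 (edgeR adjusted p = 0.0302) from 5.72 to 9.90 CPM, and Tle2 was at 0.06 (0.735).

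Of 22 other nuclear partners of beta-catenin and TCF, 12 fell, 1 rose and 9 did not pass, with a median of -0.39. The shares of all genes called were 15.8% lower and 18.1% higher. Lowest were Carm1, an arginine methyltransferase that serves as a coactivator, with a log2 fold change of -1.45 (edgeR adjusted p = 0.000858), and Hipk2, a kinase that phosphorylates TCF proteins, with -1.39 (0.00283). Crebbp and Ep300, the histone acetyltransferases that beta-catenin recruits, fell by 1.25 and 1.12 on the log2 scale (edgeR adjusted p = 0.00187 and 0.00205), and were picked after their values were seen. Highest were the histone deacetylase Hdac2, with 0.42 (edgeR adjusted p = 0.0184), and the ATPase Ruvbl1, with 0.38 (0.0737). The call of Hdac2 was lost with the GC trend removed, at 0.07 (edgeR adjusted p = 0.749). In that fit 11 of the 22 were lower and 1 higher, against 14.4% and 11.2% of all genes. The higher one was the acetyltransferase gene Kat5, with 0.37 (edgeR adjusted p = 0.0427), and the 11 were not all among the 12 of the main fit.

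Of the 5 ChiLS subunits, the LDB and SSBP proteins that bind Pygopus at enhancers, Ssbp3 fell by 0.77 and Ssbp4 by 0.59 on the log2 scale (edgeR adjusted p = 0.00108 and 0.00238), 0 rose and 3 did not pass. By the same test 15.8% of all genes were lower and 18.1% higher. The highest of the 5 subunits were Ssbp2 with 0.18 and Ldb2 with 0.07. Ssbp4 was at -0.26 (edgeR adjusted p = 0.0579) with the GC trend removed.

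Among 8 partners of beta-catenin at cell junctions, 2 fell, 0 rose and 6 did not pass, and the median was -0.01. A count of 2 in 8 is near the 15.8% of all genes called lower. Those that fell were the cadherin Cdh11, with a log2 fold change of -0.69 (edgeR adjusted p = 0.0106), and p120-catenin Ctnnd1, with -0.58 (0.00381). Ctnnd2, a catenin of neurons, had -0.66 (edgeR adjusted p = 0.508), and the highest were the neuronal alpha-catenin Ctnna2 with 0.94 (0.198) and the epithelial cadherin Cdh1 with 0.29 (0.643).

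Of 18 genes known as direct targets of beta-catenin and TCF, 14 were tested, and 6 fell, 1 rose and 7 did not pass, with a median log2 fold change of -0.44, where 15.8% of all genes were called lower and 18.1% higher. The one that rose was Axin2, a scaffold of the beta-catenin destruction complex and a feedback target in many tissues. It was at 11.95, 8.30 and 8.24 CPM in the controls and 17.2, 15.9, 13.3 and 16.1 CPM in the WDR11OE tumors, with a log2 fold change of 0.72 (SE 0.18, edgeR adjusted p = 0.0185). All WDR11OE tumors lay above all controls, and with the GC trend removed the value was 0.92 (edgeR adjusted p = 0.0106). Lowest were Myc with -1.40 (edgeR adjusted p = 0.00228) and the ephrin receptor gene Ephb3 with -1.18 (0.00106). The tumors also carry Myc on the retrovirus, and the counts do not tell its reads from those of the endogenous gene. Nkd1, a WNT antagonist, and Cd44, a hyaluronan receptor, fell by 0.89 and 0.82 on the log2 scale (edgeR adjusted p = 0.0116 and 0.00112), and Znrf3, a ubiquitin ligase that removes WNT receptors, and Jun fell by 0.41 and 0.59 (0.0171 and 0.0190). With the GC trend removed Jun was at -0.41 (edgeR adjusted p = 0.0755). In that fit 5 targets were lower and 1 higher, against 14.4% and 11.2% of all genes. Highest by value were Notum, an enzyme that inactivates WNT ligands, with 1.69 (edgeR adjusted p = 0.0785), and Lgr5, a receptor for R-spondins, with 1.35 (0.311), both of which varied widely between tumors. Sp5, Dkk1, Dkk4 and Fosl1 were too low to be tested.

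**Figure D5:**
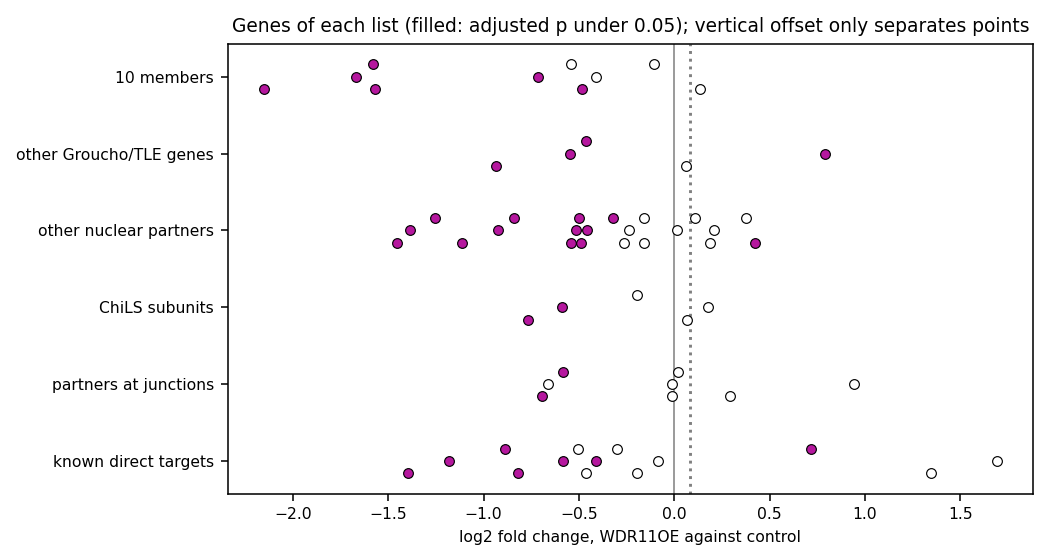
Log2 fold change of WDR11OE against control (horizontal axis) for each tested gene of the 10 members and of the 5 other lists (rows), filled where the edgeR adjusted p was under 0.05. The solid line is 0 and the dotted line the median of all genes tested, 0.08. Filled points lie mostly on the lower side, with Tle6, Hdac2 and Axin2 as the filled points on the higher side.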

How the data were processed

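RNA from 7 tumors was sequenced by the authors, who mapped the reads to NCBIM37 (mm9) with the StrongArm pipeline and deposited the HTSeq counts per gene on a GENCODE annotation, without normalization. The submitters' processing notes list CASAVA 1.7, STAR, BWA and HTSeq. The strand setting is not given in the sources used here. The labels name a TruSeq RNA kit and the methods of the study a stranded total RNA kit.

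In R 4.3.3, the 17389 genes kept by filterByExpr of edgeR 4.0.16 received TMM factors and went through its quasi-likelihood F test (two-sided, condition as the only term), with p adjusted by Benjamini-Hochberg over all of them. CPM and RPKM were computed from the counts and from GENCODE vM1 exons on NCBIM37, which gave length and GC content for 33606 genes. For the GC fit, a loess trend over exon GC content (span 0.5) entered as an offset. Other fits used limma 3.58.1 with voom (the study's method) and DESeq2 1.42.0. Scripts were tested on simulated data.

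The members and lists were chosen with earlier results of these data known. All 10 members are named, and of each list the 2 lowest and 2 highest genes. Axin2, Nkd1, Cd44, Znrf3, Jun, Ctnnd1, Crebbp, Ep300, Kat5, Tle4 and the marker S100b fall outside this rule and were picked after their values were seen. Ratios other than Tcf7l1 to Tcf7l2 were chosen after the values were seen. Replicate numbers follow the order of deposit. The tumors share one line, so p-values measure the spread between tumors of that line. No replicate pair agreed within sampling noise, and intervals cover no error beyond that spread.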

Additional observations from a re-analysis of the deposited data

Results flagged for a closer look

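Tcf7 in the WDR11OE tumors was flagged because WDR11OE 4, at 2.71 CPM, lay far from the other 3, at 4.01 to 4.25 CPM. On the log2 scale its gap to the nearest of them took 0.867 of the group's range, above Dixon's 95% critical value for 4 tumors. Of 12 quantities examined this way in WDR11OE this was the only one above the critical value, and chance flags about 1 in 20 groups. WDR11OE 4 had the largest total count, 87141305, and the highest sum of neuron markers, 668 CPM, and the part of either in this value was not tested. The 3 controls are too few for this check.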

How the results depend on the processing

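Over 16 alternative fits, Tcf7l1, Tcf7l2, Bcl9, Bcl9l and Pygo2 stayed lower with an adjusted p under 0.05, with log2 fold changes of -2.28 to -1.85, -1.75 to -1.43, -1.79 to -1.46, -1.86 to -1.32 and -0.81 to -0.46. The number of members lower was 5 with the trend over exon length removed, 7 with DESeq2, the GC trend removed, or without control 3 or WDR11OE 4, and 6 otherwise, and leaving out one tumor at a time gave 6 to 7. The count of all genes lower moved as well. It was 2744 in the main fit, 2736 with the length trend removed, 3361 with DESeq2 and 2510 with the GC trend removed. Without control 3 it was 2079 and without WDR11OE 4 it was 2868. Pygo1 passed in 4 of these fits, which include DESeq2 at -0.46 (adjusted p = 0.0228). Lef1 changed sign with the length trend removed, at 0.025 (adjusted p = 0.945, between 0.576 and 0.992 over all fits), and the cause was not tested. Tcf7 and Ctnnb1 did not pass in any. The count of all genes higher was 3150, and it was 2093 with no filter, 1946 with the GC trend removed, and 1560 to 2986 with one tumor left out at a time, lowest without WDR11OE 1 (1560), WDR11OE 2 (1657) and control 2 (2045). The Tcf7l1 share differed by -13.0 percentage points on CPM without exon length and -15.2 with the longest transcript, and by -18.0 to -17.2 with one tumor left out. The Tcf7l1 to Tcf7l2 log2 ratio then differed by -0.61 to -0.52. No paired analysis was possible because the labels give no replicate numbers. Counting depth limits Lef1 most.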
